A study of Homo sapiens with 8 samples.

Results

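The miR-28 family groups 3 human hairpins, miR-28, miR-151a and miR-708, and was followed here through 5 mature names: hsa-miR-28-5p, hsa-miR-28-3p, hsa-miR-151a-5p, hsa-miR-151a-3p and hsa-miR-708-5p (hsa stands for human and is mostly left out below). The members are defined by name, and are 5 of the 1818 mature names that carried a read in at least 1 of 8 libraries. Of the 5, 4 passed the filter on low counts that left 625 names, and miR-708-5p did not. The libraries came from HCT116, a human colorectal carcinoma line, in which DICER was put back as wild type (WT) or as one of the single-residue forms R1855L, R821H and R1003Q. Each of the 4 forms has 2 libraries. The labels call the cells rescues and do not describe the DICER gene of the cells that received the constructs, the vector, or whether each form is 1 clone. All 4 groups share the line and the rescue procedure, so WT is itself a rescue and not the unmodified line.

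DICER cuts the loop off a precursor hairpin and releases a duplex of a 5p and a 3p strand, and one strand of it is then kept in an Argonaute protein while the other is degraded. R1855 lies in the double-stranded RNA binding domain of DICER, which contacts the hairpin near the cutting site. The miR-28 family arose from LINE-2 transposable elements, so its hairpins resemble one another. miR-28-5p and miR-708-5p begin with the same seed, the stretch that pairs with target messenger RNAs, whereas miR-151a-5p carries a related stretch shifted along the strand. The hairpins sit in introns of genes of cell adhesion and migration. miR-28 is known as a repressor of growth in B cells and as an arm pair whose strands have different targets in colorectal cancer cells, and miR-151a is known for acting with its host gene product, focal adhesion kinase, in cell migration.

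The following mature sequences are shown because they carry the relation between miR-28 and miR-708 and because the seed decides which targets a strand meets. They are from the RefSeq table of GRCh38.p14, 5′ to 3′, with the seed (bases 2 to 8) in capitals. The table held 2 of the 5 members, miR-28-3p and miR-708-5p, and also the partner strand miR-708-3p.
miR-28-3p: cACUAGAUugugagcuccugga
miR-708-5p: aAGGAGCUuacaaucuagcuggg
miR-708-3p: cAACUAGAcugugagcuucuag
miR-28-3p and miR-708-3p were identical at 17 of the 22 bases of miR-28-3p when aligned, with a shared run of 8 bases (ugugagcu), and the start of the miR-28-3p seed lay 1 base further along in miR-708-3p. No other mature name of the table had the seed of miR-28-3p. The seed of miR-708-5p occurred in 1 other name of the table, miR-3139, which was not among the names tested. Because the table lacked miR-28-5p, named above as sharing that seed, this count leaves out that tested strand.

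In GRCh38, by GENCODE release 29, MIR28 lies on chromosome 3 at 188688781 to 188688866 on the plus strand, in an intron of LPP, which encodes a focal adhesion protein. MIR708 lies on chromosome 11 at 79402022 to 79402109 on the minus strand, in an intron of TENM4, a teneurin of the cell surface. MIR151A lies in an intron of PTK2, the gene of focal adhesion kinase. Each of the 3 has the orientation of its host gene.

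Library totals ranged from 462805 to 4269231 reads. WT replicate 2, R1855L replicate 1 and R821H replicate 1 were deep (2241881 reads or more), and the other 5 were shallow (1143373 or fewer), with both R1003Q libraries among the shallow ones. With the DICER form in the model, 228 of 625 names (36.5%) differed between deep and shallow libraries (edgeR, adjusted p under 0.05), so depth values are given beside the results. Among the names listed for an epithelial carcinoma line, miR-200b-3p (974 to 1562 CPM) and miR-21-5p were present in every library. CPM is a read count scaled to a common total, here without further normalisation. In the same list miR-200c-3p and miR-141-3p stayed at 12.96 to 43.7 CPM. Of 5 blood-cell markers, myeloid miR-223-3p had 2 to 9 reads per library and miR-155-5p 0 or 1. Higher counts came from miR-142-3p (208 to 1284 reads) and miR-451a (78 to 978 reads). The summed list spanned 534 to 613 CPM in WT, 564 to 637 in R1855L, 462 to 533 in R821H and 456 to 524 in R1003Q. In a list for muscle, liver and neurons, miR-9-5p had 531.5 to 1076 CPM and miR-122-5p 60.7 to 114. The rest of that list stayed at 10.8 CPM or less. The part of these markers in the results was not tested. Whether the 2 libraries of a group stem from separate cultures is not stated in the labels. The p-values therefore rest on a spread that may be only technical.

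The family was among the well-represented miRNAs of these cells through 2 of its 3 hairpins. The 4 tested members together held between 1.62% and 1.74% of all reads in the WT, R821H and R1003Q libraries, and 1.25% and 1.19% in the R1855L libraries. Levels below are CPM after TMM, a normalisation that also corrects for library composition. In WT the order was hsa-miR-151a-5p (8117 ± 3421 CPM, SD, n = 2, the 20th of 625 names), miR-151a-3p (5344 ± 995, the 37th), miR-28-5p (3041 ± 872, the 54th) and miR-28-3p (540 ± 16.0, the 136th). The libraries of miR-151a-5p and miR-151a-3p overlapped in WT, so that these neighbours were not separated beyond their spread. Both lay above miR-28-5p in each WT library, and miR-28-5p above miR-28-3p. In R1855L the order changed to miR-151a-5p (5293 ± 1813 CPM), miR-28-5p (4467 ± 1124), miR-151a-3p (1594 ± 130) and miR-28-3p (593 ± 213). There miR-151a-3p was the 76th name by level, and the libraries of miR-151a-5p and miR-28-5p overlapped.

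**Figure D1:**
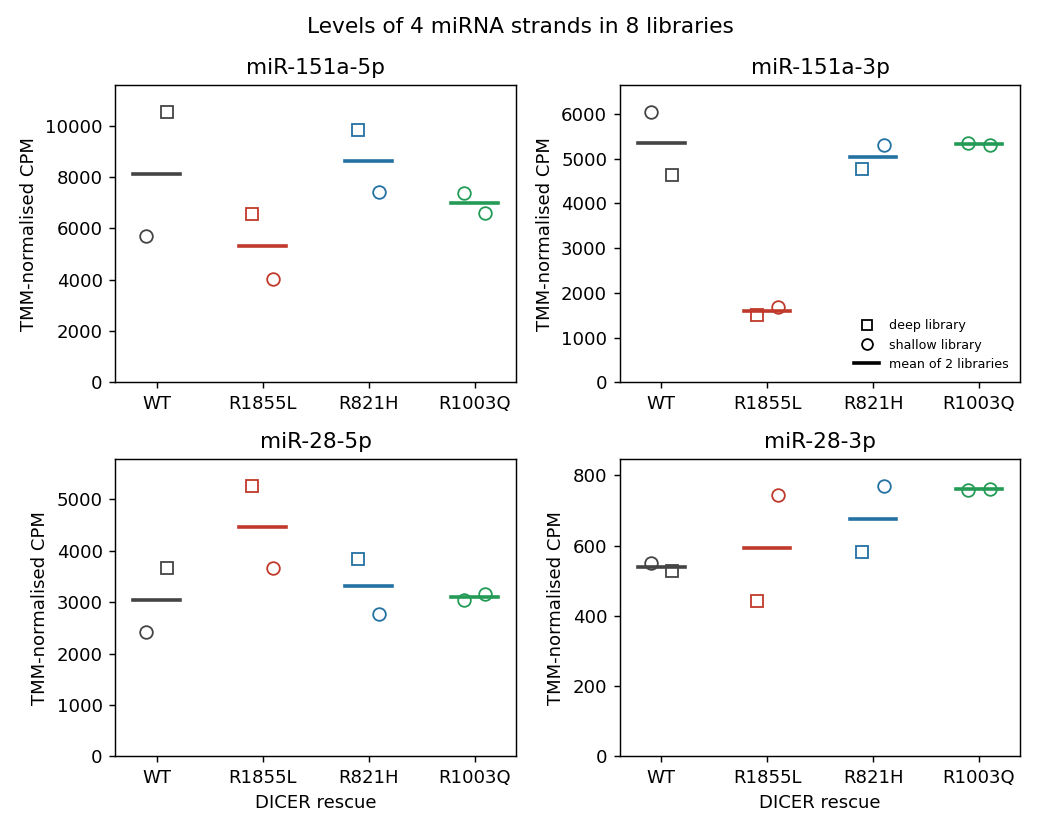
TMM-normalised CPM (linear axes from 0) of the 4 tested members in each DICER rescue, with squares for deep and circles for shallow libraries and a line at the mean of the 2 libraries of a group. The 2 R1855L libraries of miR-151a-3p sit at 1502 and 1685 CPM, under all 6 others. Over all names, R1855L and WT libraries alone did not overlap in 42.6%, and separation from all 6 others was not counted.

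hsa-miR-151a-3p was the only member called with the DICER form alone in the model, and it was lower in R1855L. In WT it stood at 6047 and 4641 CPM in replicates 1 and 2. In R1855L it stood at 1502 and 1685 CPM. In R821H the values were 4763 and 5310 CPM, and in R1003Q they were 5349 and 5312 CPM. The 2 R1855L libraries lay below all 6 libraries of the other forms, which lay between 4641 and 6047 CPM. Separation of 2 groups, in either direction, was common: R1855L and WT libraries did not overlap in 42.6% of all names. The share was 37.9% for R821H and R1855L and 45% for R1003Q and R1855L. The share of names with both R1855L libraries on one side of all 6 others was not counted. It cannot be higher than any of these shares. Against WT the fitted level fell by 1.75 on the log2 scale (SE 0.25, edgeR quasi-likelihood test, adjusted p = 0.00902), 3.35-fold lower, and it was 11th of the 625 names by p. Of all 625 names, 36 (5.76%) were called in this comparison and 34 (5.44%) were called lower, and of the 4 tested members 1 was called. The median log2 fold change was -0.24 over the 4 members and 0.13 over all names.

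The same strand differed between R1855L and each other mutant, in comparisons that share the R1855L libraries. It was 1.66 log2 units higher in R821H than in R1855L (SE 0.25, edgeR adjusted p = 0.0105), where 24 of 625 names (3.84%) were called. It was 1.74 higher in R1003Q than in R1855L (SE 0.25, edgeR adjusted p = 0.0101), where 23 names (3.68%) were called. Between the 2 deep libraries of R1855L and WT the log2 difference of miR-151a-3p was -1.63, and between the 2 shallow ones it was -1.84. With depth class as a term in the model it was -1.74 (SE 0.17, edgeR adjusted p = 3.61e-09), where 28.3% of all names were called. The deep minus shallow difference of the strand itself was -0.24 (SE 0.14, edgeR adjusted p = 0.185). A fit to only the 4 libraries of R1855L and WT gave -1.76 and no call (SE 0.40, adjusted p = 0.127). The difference between R821H and R1855L lost its call without R1855L replicate 1, either R821H or either R1003Q library, with differences of 1.61 to 1.71 and adjusted p from 0.0520 to 0.0789. That between R1003Q and R1855L lost it without R1855L replicate 1 (adjusted p = 0.0674) and without R1003Q replicate 1 (0.125) or 2 (0.110), at 1.71 to 1.75. Scaled by total counts, both missed the threshold (adjusted p = 0.0870 and 0.0639), as did R821H against R1855L in a fit to only those 4 libraries (0.0795).

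hsa-miR-151a-5p, the partner strand, was called in no comparison with the DICER form alone in the model. WT replicates 1 and 2 had 5698 and 10536 CPM, and those of R1855L 6576 and 4011. R821H had 9817 and 7429 CPM, and R1003Q 7377 and 6608. The WT libraries enclosed all others except R1855L replicate 2. The R1855L libraries lay below those of R821H and R1003Q, in comparisons where 37.9% and 45% of all names had libraries that did not overlap. The log2 fold change against WT was -0.62 in R1855L (SE 0.38, edgeR adjusted p = 0.448), 0.09 in R821H (SE 0.38) and -0.22 in R1003Q (SE 0.38), the last of which turned to 0.18 with the depth term. This strand was 0.67 log2 units higher in deep libraries (SE 0.14, adjusted p = 0.000377). With the depth term it was called lower in R1855L (-0.60, SE 0.17, edgeR adjusted p = 0.00823), in a model that called 177 of 625 names (28.3%). Without R1855L replicate 1 the change in R1855L was -1.11 and without WT replicate 2 it was -0.18, neither called. With the depth term it was also 0.74 higher in R821H (SE 0.17, edgeR adjusted p = 0.00203) and 0.78 higher in R1003Q (SE 0.19, edgeR adjusted p = 0.00364) than in R1855L, where 18.2% and 14.9% of all names were called. The sum of both miR-151a strands was 11745 and 15177 CPM in WT and 8077 and 5697 CPM in R1855L. The R1855L sums lay under all other libraries, of which the R821H and R1003Q ones spanned 11920 to 14581 CPM. For single names, R1855L and WT libraries did not overlap in 42.6%. No such share was counted for sums of both strands or against all other libraries.

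miR-151a-5p begins with the letters of miR-151b, a mature name from another hairpin, so reads of one may have been counted under the other. miR-151b made up 2.29% of the reads of both names in WT replicate 2, the lowest share, with an exact Clopper-Pearson interval at 95% of 2.14 to 2.44. The highest share was 8.29% (7.21 to 9.47), from R1855L replicate 2. It took 2.29 to 3.81% in the 3 deep and 5.10 to 8.29% in the 5 shallow libraries. With group in the model it was 0.74 log2 units lower in deep libraries (SE 0.17, edgeR adjusted p = 0.000971), the opposite direction to miR-151a-5p. Its log2 fold change in R1855L against WT was -0.04 (SE 0.41). Adding its reads to miR-151a-5p, an alternative chosen after seeing the data, changed no call of a member.

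hsa-miR-28-5p had the opposite sign to miR-151a-3p in R1855L, without passing the test. It stood at 2424 and 3658 CPM in WT and at 5262 and 3673 CPM in R1855L. In R821H it was at 3848 and 2778 CPM, and in R1003Q at 3050 and 3155 CPM. The R1855L libraries lay above both WT libraries by a narrow gap, 3673 against 3658 CPM, and R1855L replicate 2 was within the range of R821H. The log2 fold change in R1855L was 0.55 (SE 0.32, edgeR adjusted p = 0.404), which went to 0.18 without R1855L replicate 1 and to 0.81 without WT replicate 2. It was 0.12 in R821H (SE 0.32) and 0.03 in R1003Q (SE 0.32), and the latter turned to -0.01 under median-ratio scaling. In 266 of 625 names (42.6%) the R1855L and WT libraries did not overlap. The strand was 0.53 log2 units higher in deep libraries (SE 0.14, adjusted p = 0.00274). With the depth term it was called higher in R1855L (0.56, SE 0.17, edgeR adjusted p = 0.0107), in a model that called 177 of 625 names (28.3%). The difference was 0.52 for the deep pair of libraries and 0.60 for the shallow pair.

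hsa-miR-28-3p was the least abundant tested member and was called in no comparison. WT replicates 1 and 2 had 551 and 529 CPM, and those of R1855L 443 and 743. R821H had 583 and 769 CPM, and R1003Q 758 and 762. R1855L replicates 1 and 2 lay on opposite sides of WT, and both R821H and both R1003Q libraries lay above WT. Between R821H and WT 28.5% of names, and between R1003Q and WT 40.6%, had libraries that did not overlap. The log2 fold change against WT was 0.13 in R1855L (SE 0.29), 0.32 in R821H (SE 0.29) and 0.49 in R1003Q (SE 0.29, edgeR adjusted p = 0.857). This strand was lower in deep libraries (-0.40, SE 0.15, adjusted p = 0.0442), and both R1003Q libraries were shallow. With the depth term the change against WT was 0.28 in R1003Q (SE 0.21) and 0.30 in R821H (SE 0.19). In R1855L against WT the difference was -0.26 for the deep pair of libraries and 0.43 for the shallow pair.

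**Figure D2:**
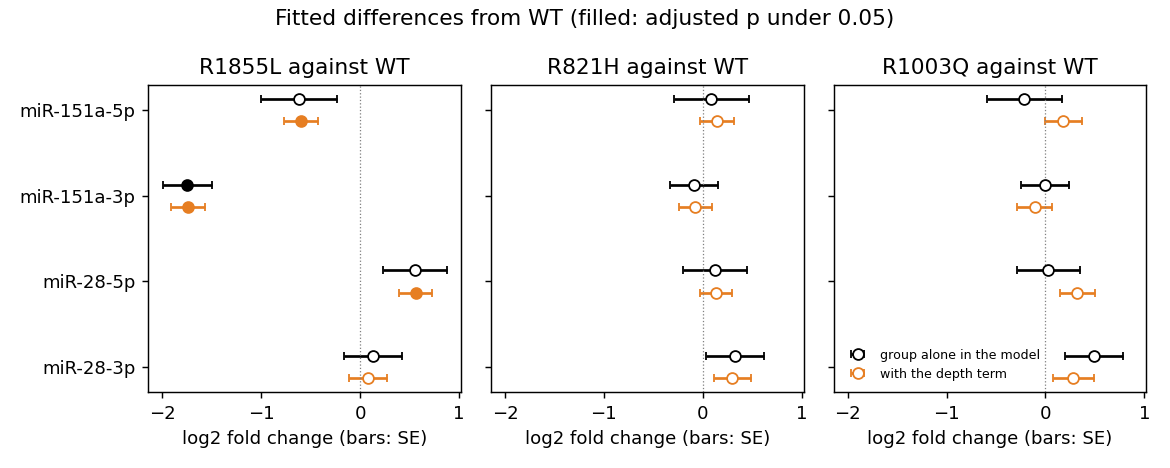
Fitted log2 fold changes of the 4 tested members against WT in each mutant, with bars of 1 SE, in black for the model with the DICER form alone and in orange for the model that adds depth class. Filled points have an adjusted p under 0.05. With the form alone only miR-151a-3p in R1855L is filled, at -1.75. With depth class 3 members are filled in R1855L and 0 in R821H or R1003Q. Of all 625 names, 5.76% were called in R1855L with the form alone and 28.3% with depth class.

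R821H and R1003Q showed no called member against WT, in comparisons where no name of 625 was called (0%) by edgeR. At an unadjusted p under 0.05 there were 20 names in R821H and 31 in R1003Q, none of them a member, and DESeq2 called 1 name in R821H and 0 in R1003Q, no member in either. With the depth term 2.56% of names in R821H and 0.32% in R1003Q were called, again with no member among them. The 4 log2 fold changes lay between -0.09 and 0.32 in R821H, with a median of 0.11 against 0.04 over all names. In R1003Q they lay between -0.22 and 0.49, with a median of 0.01 against 0.06. The standard errors of 0.24 to 0.38 leave room for moderate changes in either direction. Between R1003Q and R821H the log2 differences lay between -0.30 and 0.17, with no member and no name called.

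The strand ratio compares the 5p with the 3p reads of a hairpin in the same library, so library scaling cannot move it. Ratios were tested by limma as log2 of 5p over 3p reads, with 0.5 added to each, in 174 hairpins that included miR-28 and miR-151a. miR-28 leaned to its 5p strand in every library, whereas miR-151a was the more balanced pair. The 5p strand held 48.5% of miR-151a reads in WT replicate 1 (exact 95% interval 47.7 to 49.3) and 69.4% in WT replicate 2 (69.0 to 69.8). In R1855L it held 81.4% (80.8 to 82.0) and 70.4% (68.8 to 72.0). In R821H it held 67.3% and 58.3%, and in R1003Q 58.0% and 55.4%. These intervals cover counting error only, and the 2 WT libraries differed by far more than that.

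The miR-151a log2 ratio went from 0.55 ± 0.90 (SD, n = 2) in WT to 1.69 ± 0.62 in R1855L. The change of 1.14 (SE 0.50) had an unadjusted p of 0.0480 and did not pass adjustment (limma adjusted p = 0.241). In this comparison 13 of 174 ratios (7.47%) were called, and the median change over all 174 was 0.23 toward 5p. Both R1855L libraries lay above all others, but by little: the lower one was at 1.25 and WT replicate 2 at 1.18. The libraries of R1855L and WT alone did not overlap in 75 of the 174 hairpins (43.1%), and separation from all other libraries was not counted. Paired by depth class, R1855L exceeded WT by 0.95 for the deep pair and by 1.34 for the shallow pair. The miR-151a ratio itself was 0.90 higher in deep libraries (SE 0.25, limma adjusted p = 0.00294), and with the depth term the R1855L change of 1.14 was called (SE 0.31, limma adjusted p = 0.00198), along with 18.4% of all ratios. Without WT replicate 1 the change was 0.51, and without WT replicate 2 it was 1.78.

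Relative to R1855L the miR-151a ratio had a difference of -0.93 in R821H (SE 0.50, limma adjusted p = 0.436) and of -1.30 in R1003Q (SE 0.50, adjusted p = 0.236), neither of which passed. The R821H difference lay between -1.37 and -0.49 when R1855L replicate 2 or 1 was left out. It was called once depth class was a term, at -0.93 (SE 0.31, limma adjusted p = 0.0158), along with 39 of all 174 ratios (22.4%). With the form alone 6.32% and 7.47% of ratios were called in these comparisons, and 42% and 48.3% had libraries that did not overlap. Against WT the change was 0.22 in R821H and -0.16 in R1003Q (SE 0.50 each), where 0% of the 174 were called. The R1003Q value turned to 0.29 with the depth term.

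The 5p strand of miR-28 held 81.5% and 87.4% of its reads in WT replicates 1 and 2, and 92.2% and 83.2% in those of R1855L. R821H had 86.8% and 78.3%, and R1003Q 80.1% and 80.5%. The log2 ratio was 2.46 ± 0.46 in WT, 2.94 ± 0.90 in R1855L, 2.29 ± 0.62 in R821H and 2.03 ± 0.03 in R1003Q (SD, n = 2). WT and R1855L overlapped, and the change of 0.47 (SE 0.51, limma adjusted p = 0.713) turned to -0.16 without R1855L replicate 1. The changes in R821H (-0.18, SE 0.51) and R1003Q (-0.43, SE 0.51) did not pass either. Both R1003Q libraries lay below both WT libraries, and the libraries of these groups did not overlap in 37.9% of hairpins. With the depth term the R1003Q change was 0.03. The ratio was 0.93 higher in deep libraries (SE 0.24, limma adjusted p = 0.00103), where 43 of 174 hairpins (24.7%) differed by depth class. In each of the 3 groups with 1 library of each class, the deep library had the higher ratio for both hairpins.

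**Figure D3:**
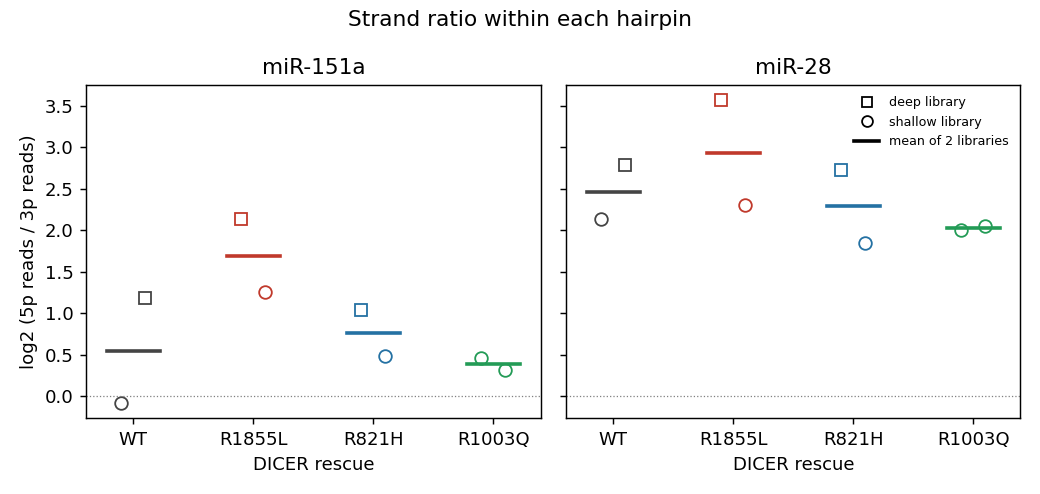
Log2 of 5p over 3p reads of miR-151a and miR-28 in each library, with squares for deep and circles for shallow libraries, a line at the mean of 2 libraries and a dotted line at equal strands. The deep R1855L library is the highest for both hairpins, at 2.13 and 3.57, and in WT, R1855L and R821H, the groups with one of each, the deep library lies above the shallow one.

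The balance between the 2 hairpins, miR-28 reads per miR-151a read, is likewise free of library scaling, and its SD within a group was 0.09 or 0.10 log2 units. This measure was chosen after its values were seen, so no test is given. Over both strands miR-28 had 0.253 and 0.276 reads per miR-151a read in WT, and 0.706 and 0.775 in R1855L. It had 0.304 and 0.278 in R821H, and 0.299 and 0.329 in R1003Q. The R1855L libraries lay above all 6 others, which spanned 0.253 to 0.329 and included deep and shallow libraries. Such a separation was common: over the 15051 pairs of the 174 hairpins, 29% had both R1855L libraries on one side of all 6 others. On the log2 scale the ratio was -1.92 ± 0.09 in WT (SD, n = 2) and -0.43 ± 0.10 in R1855L, a difference of 1.48 or 2.80-fold. In R821H and R1003Q the log2 ratio was -1.78 ± 0.09 and -1.67 ± 0.10, which is 0.14 and 0.25 above WT.

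Each arm was also compared alone. For the 5p strands the log2 ratio of miR-28 to miR-151a was -1.38 ± 0.21 in WT and -0.22 ± 0.14 in R1855L, with -1.39 ± 0.05 in R821H and -1.17 ± 0.15 in R1003Q (SD, n = 2). For the 3p strands it was -3.29 ± 0.23 in WT and -1.47 ± 0.41 in R1855L, with -2.91 ± 0.17 in R821H and -2.81 ± 0.01 in R1003Q. The R1855L libraries lay above every other library for each arm, and 19.3% of all hairpin pairs separated these libraries on the 5p and 35.7% on the 3p strands, in either direction. As a share of the family's reads, miR-151a-3p took 41.1% and 24.0% in WT against 10.9% and 16.7% in R1855L. miR-28-5p took 16.5% and 18.9% in WT against 38.2% and 36.3% in R1855L. In R821H and R1003Q miR-151a-3p took 25.1 to 33.5% and miR-28-5p 17.1 to 20.2%. A share also moves with the other members. The family held 1.25% and 1.19% of all reads in R1855L, against 1.62% to 1.74% in the other groups. The miR-28-5p level itself was 0.55 log2 units above WT in R1855L and was not called (SE 0.32, edgeR adjusted p = 0.404).

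**Figure D4:**
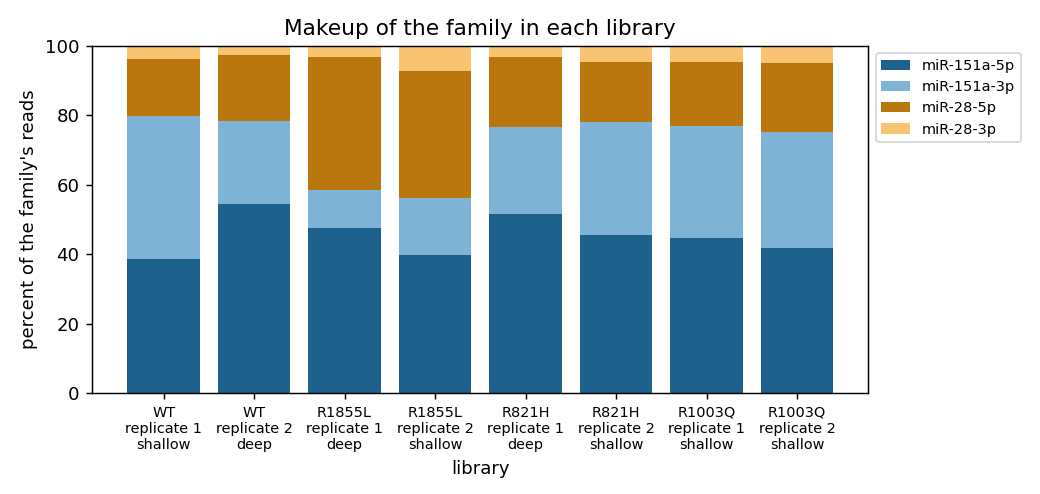
Percent of the family's reads from each of the 4 tested members in every library. In the 2 R1855L libraries miR-28-5p takes 38.2% and 36.3% of the reads, against 16.5 to 20.2% in the 6 others. A share also moves with the other members. The miR-28-5p level in R1855L was not called against WT with the form alone (edgeR adjusted p = 0.404).

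hsa-miR-708-5p was close to absent. It had 1 read in R821H replicate 1 (0.299 CPM, exact 95% interval 0.00758 to 1.67) and 0 reads in the other 7 libraries. By a one-sided 95% limit a count of 0 allows up to 3 reads, or 0.703 CPM at the largest library total and 6.48 CPM at the smallest. Differences between DICER forms were not detectable for this member at this depth. miR-708-3p had 0 reads in all 8 libraries. miR-28-5p, which shares the seed of miR-708-5p, stood at 2424 to 5262 CPM in the same libraries.

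miR-95, another hairpin derived from a LINE-2 element, was followed beside the family. Its 3p strand is the major one:
miR-95-3p: uUCAACGGguauuuauugagca
WT replicates 1 and 2 had 71.4 and 178 CPM of miR-95-3p and those of R1855L 147 and 51.5, with a log2 fold change of -0.31 (SE 0.61). The 5p strand had 0 to 26 reads per library. Of the 2 miR-95 strands tested, 0 of 2 passed in any of the 6 comparisons between forms. The miR-95 strand ratio did not pass in any of them either. In R1855L against WT its difference was 1.14 toward 5p (SE 0.84, limma adjusted p = 0.583), the same size as for miR-151a. miR-95-3p was 1.28 log2 units higher in deep libraries (SE 0.20, edgeR adjusted p = 7.03e-06).

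The names whose levels most resembled each member were taken as the 3 highest Pearson correlations of log2 CPM over the 8 libraries. Candidates were 337 names of at least 50 CPM, with strands of the member's own hairpin left out. The 8 points share libraries, depth classes and groups, so the correlations describe these libraries. miR-151a-3p was most like miR-484 (r = 0.99), miR-23b-3p (0.99) and miR-3200-3p (0.99). miR-151a-5p was most like miR-7-5p (0.97), let-7e-5p (0.92) and miR-29a-3p (0.91). miR-28-5p was most like miR-548b-5p (0.98), miR-29a-5p (0.95) and miR-31-3p (0.94), and miR-28-3p was most like miR-191-3p (0.97), miR-423-3p (0.91) and miR-769-3p (0.87). None of the 4 members was among the 3 names nearest to a member of the other hairpin. Between members, r was 0.50 for the 2 strands of miR-151a, -0.55 for the 2 strands of miR-28 and -0.77 for miR-28-5p with miR-151a-3p.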

How the data were processed

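Small RNAs of 8 HCT116 libraries were measured by AQ-seq, a ligation-bias-reduced method, from 100 µg of TRIzol total RNA, per the labels' protocols. The authors deposited estimated counts per mature miRNA name, 1 table per library, not normalised, with fractions of a read for 19 to 33 names. The submitters' processing notes name cutadapt, BWA, bedtools, hg38 and mm10, and the annotation release is not given in the sources used here. Absent names were set to 0.

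Counts were rounded, filtered by filterByExpr (625 of 1818 names, at least 99.85% of reads), scaled by TMM and fitted in 1 quasi-likelihood model over all 8 libraries (edgeR 4.0.16, R 4.3.3, Benjamini-Hochberg threshold 0.05). SE is the absolute log2 fold change over the square root of F. Strand ratios used limma 3.58.1 on 174 hairpins with at least 80 reads per strand. Both were also run on simulated counts without a depth effect, which cannot show how the fits behave where names differ by depth class. Depth classes were split at the widest gap between log totals. Alternatives included DESeq2 1.42.0. Named miRNAs are the members, their relatives, miR-95 and the 3 nearest names. Members and lists were chosen with earlier results of these data known.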

Additional observations from a re-analysis of the deposited data

How the results depend on the processing

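The call of miR-151a-3p in R1855L against WT held under 17 of 18 alternatives, with log2 fold changes of -2.02 to -1.54 and adjusted p from 3.61e-09 to 0.127. Of the 4 members, 0 were called in the fit to only the 4 libraries compared, which called 2 names in all, and 3 with the depth term, which called 177 against 36. In R821H against R1855L, 0 were called under total counts scaling and in the fit to only the 4 libraries, and 2 with the depth term, which called 114 of 625 names against 24. In R1003Q against R1855L, 0 were called under total counts scaling and 2 with the depth term, which called 93 names against 23. Leaving out 1 library gave 0 to 1 called members in both comparisons. The depth term called 1 of the 2 strand ratios in R1855L against WT and 1 in R821H against R1855L, that of miR-151a each time, with 32 of 174 ratios called against 13 in the former and 39 against 11 in the latter. The causes were not tested.

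Signs turned only for values that did not pass the test. Without a filter the log2 fold change was -0.033 for miR-28-3p in R1855L, -0.0017 for miR-151a-5p in R821H and -0.13 for miR-28-5p in R1003Q, each against WT. Under total counts scaling it was -0.0051 for miR-151a-5p in R821H against WT and 0.027 for miR-28-5p in R1003Q against R821H. For miR-28-5p in R1003Q against WT it was -0.0061 under median-ratio scaling and -0.0063 by DESeq2. With the depth term R1003Q against WT gave 0.18 for miR-151a-5p, and ratio changes of 0.29 for miR-151a and 0.031 for miR-28. R1003Q against R821H then gave -0.035 for miR-151a-3p, 0.040 for miR-151a-5p, -0.017 for miR-28-3p and 0.19 for miR-28-5p, with ratio changes of 0.077 for miR-151a and 0.21 for miR-28.

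Leaving out each library in turn moved these values as follows. In R1855L against WT miR-28-3p spanned -0.30 to 0.35 and the miR-28 ratio -0.16 to 1.11. In R821H against WT miR-151a-3p spanned -0.34 to 0.11, miR-151a-5p -0.30 to 0.53, miR-28-5p -0.21 to 0.38, the miR-151a ratio -0.42 to 0.85 and the miR-28 ratio -0.61 to 0.26. In R1003Q against WT miR-151a-3p spanned -0.28 to 0.20, miR-151a-5p -0.59 to 0.20, miR-28-5p -0.24 to 0.26 and the miR-151a ratio -0.79 to 0.48. miR-28-3p spanned -0.099 to 0.58 in R821H against R1855L. In R1003Q against R821H miR-28-5p spanned -0.33 to 0.19 and the miR-28 ratio -0.69 to 0.18. Where an arm was left with 1 library, it was assumed to vary like the other groups.

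The replicate numbers did not pair the libraries. Same-numbered deviations from the group means correlated across names at -0.70 between WT and R1855L, -0.67 between WT and R821H, 0.097 between WT and R1003Q, 0.58 between R1855L and R821H, 0.028 between R1855L and R1003Q and -0.16 between R821H and R1003Q. With the replicate number as a block, 1 member (miR-151a-3p) was called in R1855L against WT, in R821H against R1855L and in R1003Q against R1855L, and 0 in the other 3 comparisons. Over all names the block moved the count of calls in R1855L against WT from 36 to 19, in R821H against R1855L from 24 to 15 and in R1003Q against R1855L from 23 to 13, and the counts of called ratios in the last from 13 to 2. A crossed block, added after seeing the data, swapped the replicate numbers of R1855L and R821H. In WT, R1855L and R821H it then equals depth class, so it is not a check apart from the depth term. It is counted among the alternatives above. The crossed block gave 68 calls in R1855L against WT, 1 of them a member, and 0 in R821H against WT and in R1003Q against R821H. The lowest depth, 462805 reads, and 2 libraries per group limit what differences could pass.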
